A study of Mus musculus with 52 samples.

Results

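The genes of fatty acid synthesis were followed in 8 tissues and cell types of mice with and without the Tug1 locus, which encodes a long noncoding RNA. The group was chosen by name and holds 10 protein-coding genes out of 39144 genes listed: Fasn, Scd1, Scd2, Acaca, Acly, Elovl6, Me1, Thrsp, Srebf1 and Pnpla3. All 10 were listed in testes, brain, eyes, heart, liver, prostate and spleen. In embryonic fibroblasts grown in culture (MEFs, at an early passage) 9 were listed, all but Thrsp.

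In the knockout allele, Tug1 tm1.1Vlcg, a lacZ reporter replaces the Tug1 gene body while the Tug1 promoter and the first exon remain, so Tug1-/- mice lack the DNA of the locus as well as its RNA. Male wild-type and Tug1-/- mice were on a mixed C57BL/6J and 129S6 background, labelled as N3 on C57BL/6J and free of the neomycin cassette (Neo) in eyes, heart, liver, prostate, spleen and MEFs. In testes the wild-type label reads no Neo, while the labels of the Tug1-/- and rescue groups read Neo and LacZ, although the methods of the study describe excision of the cassette with a Cre strain and a colony founded from animals without it. Whether the testes labels describe the animals was not settled here, and if they do, Neo and genotype cannot be told apart in testes. Rescue mice were Tug1-/- and carried tg(Tug1), a Tug1 transgene at a random integration site, together with CAGs-rtTA3, a transactivator under a ubiquitous promoter that needs doxycycline, which was given in the food from the plug date on. The diet of the other groups was not given in the sources used here, nor was age in the labels. Of the 52 samples, 46 lie behind the means used here. Testes had 4 wild-type, 4 Tug1-/- and 3 rescue samples and prostate had 3 wild-type samples but 2 of Tug1-/-. There were 3 samples per genotype of eyes, heart, liver, spleen and MEFs, while brain came from libraries outside the series.

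Cells make fatty acids from citrate. Acly (ATP citrate lyase) splits citrate into acetyl-CoA, Acaca (acetyl-CoA carboxylase 1) turns acetyl-CoA into malonyl-CoA, and Fasn (fatty acid synthase) builds palmitate from both with NADPH that Me1 (malic enzyme 1) helps to supply. Elovl6 lengthens palmitate, and the stearoyl-CoA desaturases Scd1 and Scd2 put in a double bond. Srebf1 encodes SREBP-1, the transcription factor that insulin and liver X receptors use to switch these genes on, Thrsp (Spot 14) is a small protein that promotes the pathway, and Pnpla3 is a lipid droplet protein whose gene is itself an SREBP-1 target. The pathway is known for its high activity in liver and in adipose tissue.

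The files hold the mean of each group in TPM, transcripts per 1e6 after allowing for the length of each gene, and no value of a single sample. From these means alone, no spread between replicates, no interval and no test could be computed for any value below. The columns of the authors' own comparisons, which hold test statistics and p-values and, outside testes, standard errors, were not used, so the differences between group means below are not set against replicate error. Each comparison is given as the log2 ratio of the means after adding 0.1 TPM to each. A gene was compared where the mean of both groups was at least 1 TPM, and it is said to be past the fold where the ratio exceeded 1.5-fold in either direction. The share of all genes past the fold is given beside the members' counts as the background. In tissue, fewer cells of a type and less RNA per cell cannot be told apart.

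Tug1 itself was at 10.1 to 57.5 TPM in the 8 wild-type means and at 0.00832 to 0.885 TPM in the Tug1-/- means, with 1.60 TPM in rescue testes. Summed markers of the labelled tissues were high in wild type: spermatids 49235 TPM in testes, neurons 3194 and oligodendrocytes 4070 in brain, photoreceptors 26759 in eyes, cardiomyocytes 21925 in heart, hepatocytes 125026 in liver, fibroblasts 10252 in MEFs, prostate epithelium 88158 in prostate, and B and T lymphocytes 3834 in spleen. Mean normalised counts summed to 17573743 per library in brain and to between 38666994 and 48341823 in the other 6 tissues of that table, and the testes table gives no depth. The median log2 ratio of all genes lay within 0.05 of 0 except in eyes (-0.11), heart (0.10) and spleen (-0.11). Scaling also moved how the genes past the fold divided between higher and lower. With ratios centred on the median, the share that was higher went from 42.6% to 59.6% in eyes, from 47.9% to 29.9% in heart and from 53.3% to 70.3% in spleen. With protein-coding genes only it was 63.3% in eyes, 46.8% in heart and 68.3% in spleen, and it went from 48.0% to 36.0% in MEFs, from 69.6% to 84.7% in prostate and from 28.9% to 4.89% in rescue over Tug1-/- testes. None of these rescalings took the number of members past the fold beyond 1.5 times the number given below, in any comparison.

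By the files' coordinates (mm10) Acaca, Acly, Fasn and Srebf1 lie on chromosome 11, as Tug1 does, but at least 56.6 Mb from it. Scd2 (chr19:44293676-44306864, plus strand) and Scd1 (chr19:44394451-44407709, minus strand) lie 87.6 kb apart, with Scd4, another desaturase gene, between them. The counting used reads with a single place in the genome. Of all 100-base windows of the longest Acaca transcript (GENCODE vM21, the same build), 42.8% also occurred in transcripts of another gene, Gm5182, so the level of Acaca is uncertain. For Me1 the share was 17.2%, with Gm7049 as the closest match. Scd1 shared 2.66% and Scd2 0.896% of windows, mostly with each other and with Scd3, and the share was at most 0.974% for the other 6 genes. Whether strand was used in counting was not stated, and Gm11437 lies within Acaca on the other strand over 19126 bases.

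Promoter windows, 250 bases before to 50 bases after a RefSeq start (GRCm38.p6), were at hand for 8 of the 10 genes, all but Scd1 and Scd2. Of these, Thrsp, Pnpla3 and Elovl6 are shown because they were higher together in Tug1-/- prostate, and Fasn as the central enzyme of the pathway. They read 5′ to 3′ on the strand of the gene, at chr7:97417501-97417800 (minus), chr15:84167566-84167865 (plus), chr3:129532136-129532435 (plus) and chr11:120824498-120824797 (minus). Capitals mark the CCAAT box (CCAAT or ATTGG) that the factor NF-Y reads, and the GC box (GGGCGG or CCGCCC) that Sp1 reads.
Thrsp: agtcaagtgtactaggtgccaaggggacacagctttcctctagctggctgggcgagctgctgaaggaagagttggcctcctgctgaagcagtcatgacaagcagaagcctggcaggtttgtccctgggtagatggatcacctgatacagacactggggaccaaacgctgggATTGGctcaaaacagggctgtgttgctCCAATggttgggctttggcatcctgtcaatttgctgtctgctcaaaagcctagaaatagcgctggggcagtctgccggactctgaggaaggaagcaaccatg
Pnpla3: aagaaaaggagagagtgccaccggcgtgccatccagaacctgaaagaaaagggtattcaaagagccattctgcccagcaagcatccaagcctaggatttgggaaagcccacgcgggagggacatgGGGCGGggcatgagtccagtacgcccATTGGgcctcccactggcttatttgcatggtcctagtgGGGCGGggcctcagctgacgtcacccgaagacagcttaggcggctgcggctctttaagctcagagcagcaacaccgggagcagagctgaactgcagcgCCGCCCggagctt
Elovl6: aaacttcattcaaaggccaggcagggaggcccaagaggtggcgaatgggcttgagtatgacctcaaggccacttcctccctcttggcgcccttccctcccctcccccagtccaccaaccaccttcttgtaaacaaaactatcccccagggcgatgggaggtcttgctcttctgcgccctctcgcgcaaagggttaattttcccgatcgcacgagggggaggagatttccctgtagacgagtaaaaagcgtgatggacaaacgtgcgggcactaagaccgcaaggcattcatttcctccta
Fasn: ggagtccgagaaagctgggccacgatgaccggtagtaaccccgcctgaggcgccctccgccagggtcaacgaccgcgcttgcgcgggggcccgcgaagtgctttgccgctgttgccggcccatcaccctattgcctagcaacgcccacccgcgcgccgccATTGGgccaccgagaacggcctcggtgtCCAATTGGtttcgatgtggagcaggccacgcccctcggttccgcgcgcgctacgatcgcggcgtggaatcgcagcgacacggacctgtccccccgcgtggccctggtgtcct

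Both strands were searched for 4 motifs. Me1 and Srebf1 have more than 1 start, so the 8 genes had 11 windows. CCAAT was in 7 of these 11 windows, against 37.4% of all 32851 promoter windows. The 7 belong to Thrsp, Me1, Srebf1, Acly, Fasn and Pnpla3. The Fasn window holds 3 copies, 2 of them overlapping in opposite directions, and the Thrsp window 2. GGGCGG was in 5 of the 11, in windows of Me1, Srebf1, Acly and Pnpla3, against 35.7% of all windows, and Pnpla3 holds 3 copies. In Me1 the CCAAT box and the GC boxes lie in windows of different starts. The E-box CACGTG (7.15% of all windows) and the sterol element TCACNCCAC (1.24%) were in none of the members' windows. The Elovl6 window held none of the 4 motifs. So Thrsp and Pnpla3, which had the largest ratios in prostate, both carry a CCAAT box, as many promoters do, and Elovl6, which was higher beside them, has none in these 300 bases.

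In wild type the 10 genes together made up from 335 TPM in heart to 6303 TPM in liver. The tissues differed in which desaturase was the more abundant. Scd1, the desaturase of liver, skin and fat, was at 5162 TPM in liver and made up 81.9% of the members' sum there. It was at 362 TPM in spleen, 250 in brain, 145 in heart, 133 in eyes, 125 in prostate, 114 in MEFs and 21.1 in testes. Scd2, the desaturase known from brain and early development, had another order, with 1411 TPM in brain, 876 in MEFs, 611 in eyes, 341 in prostate, 146 in testes, 84.6 in spleen, 14.7 in heart and 2.81 in liver. Scd1 was 1834-fold higher than Scd2 in liver, 9.84-fold in heart and 4.28-fold in spleen, whereas Scd2 was the higher of both in the other 5 tissues, from 2.72-fold in prostate to 7.66-fold in MEFs.

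**Figure D1:**
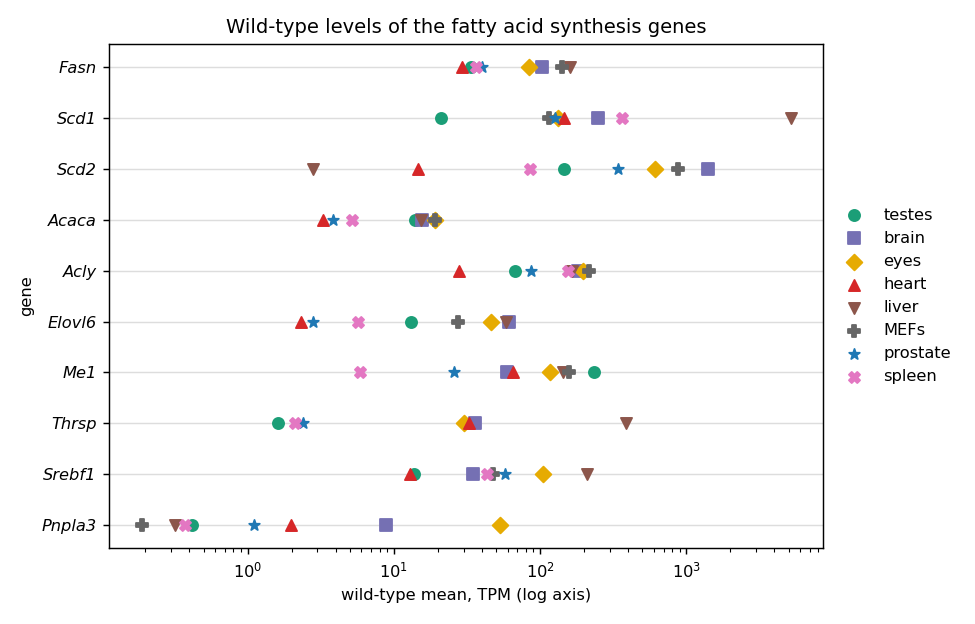
Wild-type mean of each gene in TPM (log axis), with a point per tissue or cell type and no error bars because single samples are not in the files. Scd1 and Thrsp stand far to the right in liver, Scd2 far to the left in liver, and Pnpla3 is below 1 TPM in 4 of the 8 tissues.

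The enzymes of the core pathway varied less. Fasn ranged 5.52-fold, from 29.1 TPM in heart to 161 in liver, with MEFs at 142 and brain at 103. Acaca ranged 5.87-fold, from 3.28 TPM in heart to 19.2 in eyes, and Acly 7.81-fold, from 27.7 TPM in heart to 216 in MEFs. Heart was the lowest tissue for Fasn, Acaca, Acly, Elovl6 and Srebf1. Elovl6 was at 60.8 TPM in brain and 58.4 in liver, which are next to each other in the order and only 1.04-fold apart, and at 2.30 TPM in heart. Me1 had its highest mean in testes, 234 TPM, ahead of MEFs with 159, and its lowest in spleen with 5.84.

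The regulators and Pnpla3 also differed between tissues. Srebf1 was at 209 TPM in liver, 105 in eyes and 12.9 in heart, and this gene-level value covers both SREBP-1a and SREBP-1c. Thrsp was at 387 TPM in liver, 10.8-fold above brain with 35.8, then 32.6 in heart, 30.0 in eyes, 2.41 in prostate, 2.11 in spleen and 1.61 in testes. Pnpla3 was at 53.3 TPM in eyes and 8.77 in brain, but only 1.97 in heart and 1.11 in prostate, and from 0.189 to 0.415 TPM in testes, spleen, liver and MEFs. In liver, where Srebf1 was highest, Pnpla3 was at 0.321 TPM.

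Across the 8 tissues, 75 of the 79 listed pairs of a gene and a tissue could be compared between Tug1-/- and wild type. Pnpla3 stayed under 1 TPM in testes, liver, MEFs and spleen. In 53 pairs the means were less than 0.32 apart on the log2 scale, and 12 pairs were past 1.5-fold, 7 higher and 5 lower in Tug1-/-. They belonged to 6 genes: Thrsp, Scd1, Scd2, Elovl6, Pnpla3 and Fasn. Acaca, Acly, Me1 and Srebf1 were past the fold in no tissue, though Acaca in heart and Srebf1 in liver, both at -0.56, lay just inside it, and Acaca in heart was past it once the all-gene median was taken off (-0.66). Those past the fold were lower in heart (4) and testes (1) and higher in prostate (3), eyes (2), spleen (1) and liver (1).

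**Figure D2:**
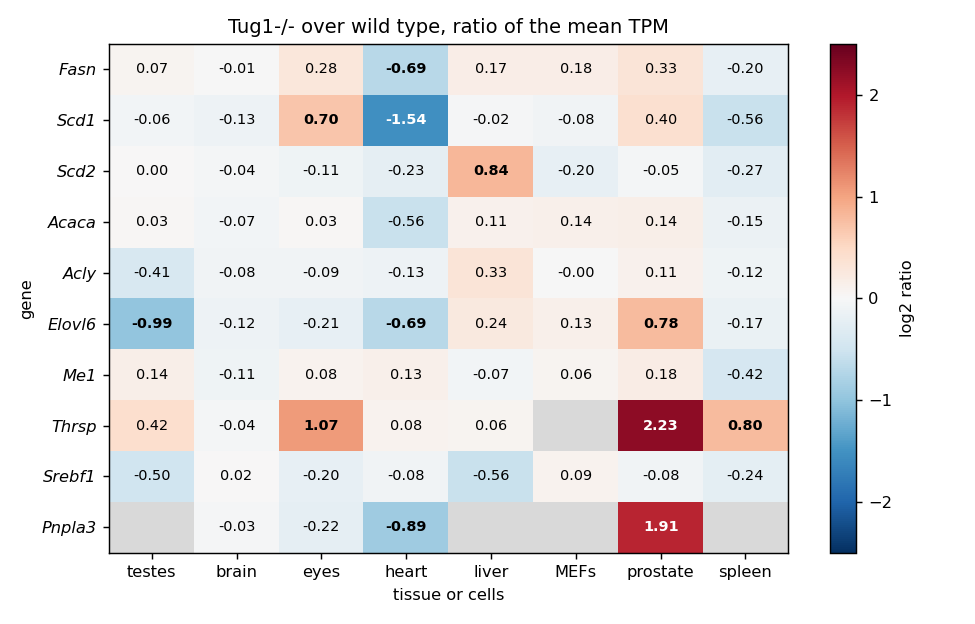
Log2 ratio of the mean TPM, Tug1-/- over wild type, for each gene (rows) in each tissue or cell type (columns). Red is higher in Tug1-/-, blue is lower, bold values are past 1.5-fold, and grey cells were under 1 TPM or not listed. Heart holds 4 bold values on the lower side and prostate 3 on the higher side, while brain and MEFs hold none.

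At the settings used, heart had the most members past the fold of the 8 tissues. With a pseudocount of 1 TPM heart had 2 (1.98% of all genes) and prostate 3 (4.28%). At 2-fold heart had 1 (1.07%) and prostate 2 (2.67%). In Tug1-/- heart 4 of 10 were lower, against 1.82% of 13701 genes, and none was higher, against 1.67%. Scd1 was at 145 TPM in wild type and 49.8 in Tug1-/-, a log2 ratio of -1.54, and only 0.365% of the genes compared in heart lay as far from 0. Pnpla3 went from 1.97 to 1.01 TPM (log2 -0.89), Elovl6 from 2.30 to 1.39 TPM (-0.69) and Fasn from 29.1 to 18.0 TPM (-0.69). Acaca, at 3.28 and 2.19 TPM, had a log2 ratio of -0.56. Less the all-gene median of 0.10, the ratios were -1.64 for Scd1, -0.998 for Pnpla3, -0.79 for Elovl6 and Fasn, and -0.66 for Acaca, which made 5 members past the fold on that scale.

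The other 5 members were inside the fold in heart. Thrsp was at 32.6 and 34.5 TPM, Srebf1 at 12.9 and 12.2, Acly at 27.7 and 25.3, Me1 at 65.5 and 71.5 and Scd2 at 14.7 and 12.5. Less the all-gene median, Scd2 was at -0.34, Acly at -0.23, Srebf1 at -0.18, Thrsp at -0.02 and Me1 at 0.02. So the desaturase Scd1, the synthase and the elongase were lower in the means past the fold. The transcript of their regulator Srebf1 had a ratio of -0.08, or -0.18 less the median. Elovl6 and Pnpla3 rest on few reads, with 246 and 141 normalised counts in the mean library, and Scd1 on 9841. Of 79 other genes of lipid synthesis, in 6 lists, 68 could be compared in heart and 1 was past the fold: Cidec, a lipid droplet protein of fat cells, lower at -0.79. Their median log2 ratio was 0.11. Cidec is also on the list of white adipocyte markers and is counted in both lists, here and in the other tissues.

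Fat cell markers were lower in the same comparison. Of 8 white adipocyte markers 7 could be compared in heart and 6 were lower past the fold, among them Retn (-1.18), Adipoq (-1.15), Plin1 (-1.13) and Cfd (-0.83), while Fabp4 was at -0.01. Their summed level went from 497 to 399 TPM, of which Fabp4 alone made up 288 and 286 TPM, and none of the 8 was at 0. Of 4 brown adipocyte markers compared, Ucp1 (-0.92) and Adrb3 (-0.80), which is on both adipocyte lists, were lower. Of 4 lymphocyte markers 3 were lower too: Ms4a1 (-1.27), Cd79b (-1.16) and Cd79a (-1.07), all of B cells. None of these cell types was measured apart. The part of fat cells and lymphocytes in the lower Scd1, Fasn, Elovl6 and Pnpla3 was not tested. Of the fasting genes, Pck1 (-1.14) and Angptl4 (-0.92) were lower, and of the evening clock genes Per2 (1.22), Per1 (0.66) and Ciart (0.65) were higher, with no morning clock gene past the fold.

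Prostate had the largest ratios. In Tug1-/- prostate 3 of 10 members were higher, against 4.67% of 15110 genes, and none was lower, against 2.05%. Thrsp was at 2.41 TPM in wild type and 11.7 in Tug1-/- (log2 2.23), Pnpla3 at 1.11 and 4.44 TPM (1.91) and Elovl6 at 2.80 and 4.89 TPM (0.78). Of all genes compared in prostate, 0.715% lay as far from 0 as Thrsp and 0.907% as far as Pnpla3. Scd1 followed with 125 and 166 TPM (0.40) and Fasn at 39.9 TPM in wild type (0.33), both inside the fold. Scd2, which is more abundant than Scd1 in prostate, was at 341 and 330 TPM, and Srebf1 was at 57.6 and 54.5 TPM. Acaca (0.14), Acly (0.11) and Me1 (0.18) were near even. These 3 members past the fold were the least abundant in wild-type prostate, at 149 to 306 normalised counts per library, and the Tug1-/- mean is over 2 samples.

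All 8 white adipocyte markers were higher in Tug1-/- prostate, from Adrb3 at 0.90 to Cfd at 2.45, with a summed level of 107 TPM in the wild-type mean and 531 TPM in the knockout and no marker at 0. Of the other lipid genes, 7 of 67 were higher past the fold and none was lower. They include 4 of 11 genes of glyceride synthesis and lipid droplets, Cidec (2.26), Dgat2 (1.74), Plin4 (0.87) and Plin2 (0.68), and also Pparg (1.51), the master regulator of fat cells, Acacb (1.08), the carboxylase that governs fatty acid oxidation, and Fads3 (0.62). None of 15 cholesterol synthesis genes was past the fold. Of 5 seminal vesicle markers 3 were higher past the fold, Pate4 (1.72), Svs2 (1.61) and Svs5 (1.58), while Svs4 (0.57) and Svs6 (-0.50) stayed inside it. Their sum was 22263 TPM in wild type against 67072 in the knockout mean. Of the fasting genes Pck1 (1.90) and Angptl4 (0.65) were higher, and of the evening clock genes Per2 (0.81) and Per1 (0.60). The part of adipocytes and of seminal vesicle tissue in the higher Thrsp, Pnpla3 and Elovl6 was not tested.

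In Tug1-/- eyes 2 of 10 members were higher, against 2.84% of 19203 genes, and none was lower, against 3.82%. Thrsp was at 30.0 TPM in wild type and 63.0 in Tug1-/- (log2 1.07), and Scd1 at 133 and 216 TPM (0.70). Less the all-gene median of -0.11 these were 1.18 and 0.80. Fasn was at 84.2 and 102 TPM, a log2 ratio of 0.28, or 0.38 less the median. Pnpla3, for which eyes were the richest tissue, was at 53.3 and 45.6 TPM (-0.22), Elovl6 at 46.2 and 40.0 TPM (-0.21), and Srebf1 at 105 and 91.7 TPM (-0.20). Scd2 (611 and 566 TPM), Acly (196 and 184 TPM), Me1 (116 and 123 TPM) and Acaca (19.2 and 19.7 TPM) stayed within 1.1-fold.

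White adipocyte markers were higher past the fold in eyes too, 8 of 8, from Adrb3 at 1.31 to Cfd at 2.46, with a sum of 210 TPM in the wild-type mean and 877 TPM in the knockout mean and none at 0. Of 4 brown adipocyte markers compared, Adrb3 (1.31), Cidea (0.98) and Dio2 (0.61) were higher and Ucp1 (-1.98), the uncoupling protein that defines brown fat, was lower. Of the lipid genes, 8 of 75 were higher and none lower: Cidec (2.14), Plin5 (1.07), Plin4 (0.99), Dgat2 (0.93) and 2 more of the glyceride list, together with Pparg (1.24) and Acacb (0.75). Of the fasting genes, Pdk4 (1.56) and Pck1 (1.30) were higher. The 5 photoreceptor markers were at -0.23 to -0.14, and 2 of 4 genes on the cardiomyocyte list, Actc1 (0.88) and Myl2 (0.77), were higher. The cells of the eye samples that these muscle transcripts came from were not determined. Of the 5 lacrimal and Harderian gland markers only Awat2 passed 1 TPM, at 2.10 and 1.52 TPM. The part of any cell type in the higher Thrsp and Scd1 was not tested.

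**Figure D3:**
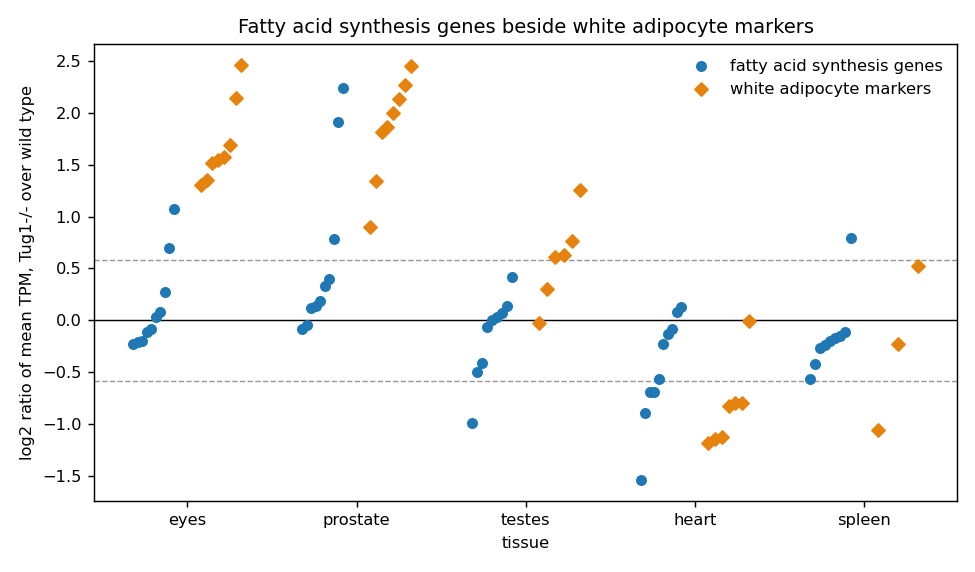
Log2 ratio of the mean TPM, Tug1-/- over wild type, for the fatty acid synthesis genes compared (blue circles) and the white adipocyte markers compared (orange diamonds) in 5 tissues. Dashed lines mark 1.5-fold. In eyes and prostate all 8 markers are above the upper line with some of the blue points, and in heart 6 of 7 markers are below the lower line with 4 of 10 blue points. In testes some markers are above the upper line, while Elovl6 is below the lower line. In spleen Adipoq is below the lower line and Thrsp is above the upper line. Liver, brain and MEFs are not plotted.

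In spleen 1 of 9 members compared was higher in Tug1-/-, against 4.99% of 16810 genes, and none was lower, against 4.37%. It was Thrsp, at 2.11 and 3.73 TPM (log2 0.80, or 0.91 less the all-gene median), with 96.8 normalised counts per library. Scd1, the most abundant member in spleen, was at 362 and 245 TPM (-0.56, or -0.46 less the median), just inside the fold. Me1 was at 5.84 and 4.32 TPM (-0.42, or -0.32 less the median) and Scd2 at 84.6 and 70.2 TPM (-0.27, or -0.16). Fasn, Acaca, Acly, Elovl6 and Srebf1 lay between -0.24 and -0.12, or between -0.13 and -0.01 less the median. Only 3 of 8 white adipocyte markers could be compared, Adipoq (-1.06), which was lower, and Cfd (-0.23) and Fabp4 (0.53), which stayed inside the fold. Less the all-gene median, Fabp4 (0.63) was higher past the fold. Hepatocyte markers were lower, 3 of 3 compared, at a sum of 22.2 against 0.677 TPM, with Alb at 16.4 and 0.0843 TPM. Of 5 fibroblast markers Pdgfrb (-0.61) and Col3a1 (-0.59) were lower past the fold, and all 5 had ratios below 1. Less the all-gene median, Pdgfrb (-0.50) and Col3a1 (-0.48) were inside the fold. Spink1, listed among the prostate epithelium markers, was listed at 0 TPM in wild type and was at 68.8 in Tug1-/-. Of the spleen's own lymphocyte markers none was past the fold. Those of B cells had ratios below 1, Cd79a (-0.45), Cd79b (-0.44) and Ms4a1 (-0.36), while those of T cells, Cd3d (-0.02) and Cd3e (0.0039), were near even. The part of any of these cell types in the Scd1 and Thrsp ratios was not tested. Of 66 lipid genes 1 was past the fold, Pklr (1.49), a pyruvate kinase of liver and red cells. Less the all-gene median, Acsl1 (0.63) was past it too. Of the fasting genes Pdk4 was higher (1.03) and Fgf21 lower (-0.62), though Fgf21 was inside the fold less the median (-0.52).

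Liver, where Scd1 alone made up 81.9% of the members' summed wild-type level, had 1 of 9 members past the fold. It was higher, against 2.97% of 11849 genes, and no member was lower, against 2.25%. The member was Scd2, the scarce desaturase of liver, at 2.81 TPM in wild type and 5.11 in Tug1-/- (log2 0.84, 384 normalised counts). Scd1 was at 5162 and 5079 TPM (-0.02), and it was 995-fold above Scd2 in Tug1-/- liver. Thrsp was at 387 and 404 TPM (0.06), Fasn at 161 and 180 TPM (0.17), Acaca at 15.2 and 16.5 TPM (0.11), Elovl6 at 58.4 and 69.2 TPM (0.24) and Acly at 166 and 208 TPM (0.33). Srebf1 went the other way, from 209 to 142 TPM (-0.56), and Me1 from 143 to 137 TPM (-0.07). The lower mean of Srebf1 stood beside ratios from 0.06 to 0.33 for Thrsp, Acaca, Fasn, Elovl6 and Acly.

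Of the other lipid genes of liver, 9 of 73 were higher past the fold and 1 was lower. Among the higher were Lpin1 (2.21), a phosphatidate phosphatase, and the droplet proteins Plin5 (0.64) and Plin4 (0.62). Of the cholesterol synthesis genes the epoxidase Sqle (1.03) and Mvd (0.62) were among the higher, and 15 of 16 had a ratio above 1. Aacs (0.94), which makes acetoacetyl-CoA, and the desaturase Fads2 (0.62) were higher, and Pparg was lower (-0.95). Of the fasting genes Fgf21 (2.21) and Igfbp1 (1.41) were higher and G6pc (-0.71) was lower. Of the clock genes Ciart (0.70) was higher and Nfil3 (-0.65) lower. The hour at which liver was taken and the feeding state were not in the labels, and their part in these values was not tested.

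In Tug1-/- testes 1 of 9 members compared was lower, against 2.90% of 21813 genes, and none was higher, against 2.34%. It was Elovl6, at 13.0 TPM in wild type and 6.50 in Tug1-/- (log2 -0.99). Srebf1 was at 13.7 and 9.69 TPM (-0.50) and Acly at 67.3 and 50.7 TPM (-0.41). Me1, the most abundant member in testes, was at 234 and 258 TPM, Scd2 at 146 in both groups, Fasn at 33.8 and 35.5 TPM, Scd1 at 21.1 and 20.3 TPM and Acaca at 14.0 and 14.3 TPM. Thrsp was at 1.61 and 2.19 TPM (0.42). Of the 74 lipid genes 3 were higher and 2 lower. The lower genes were Elovl4 (-2.39), which makes very long chain fatty acids, and Mid1ip1 (-0.59), a partner of acetyl-CoA carboxylase and relative of Thrsp. The higher genes were Elovl3 (0.64), Cidec (0.63) and Me2 (0.59).

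Steroid-producing Leydig cells and fat cells had higher markers in Tug1-/- testes. Insl3 (1.33), Cyp11a1 (0.81) and Star (0.73) were past the fold among 5 Leydig markers, whose sum went from 483 to 742 TPM, and 4 of 6 white adipocyte markers compared were past it, with a sum of 36.9 and 48.1 TPM over all 8. None of the 5 Sertoli markers was past the fold, and none of the 5 spermatid markers, which summed to 49235 and 46767 TPM. Their part in the lower Elovl6 was not tested.

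The rescue group was compared with both other groups, and these comparisons share libraries with the first. Against Tug1-/-, 1 of 9 members was lower, against 2.56% of 21606 genes, and none was higher, against 1.04%. It was Scd1, at 8.97 TPM in rescue and 20.3 in Tug1-/- testes (log2 -1.17). Against wild type, 4 of 9 members were lower, against 4.33% of 21705 genes, and none was higher, against 2.27%. They were Elovl6 (-1.39), Scd1 (-1.23), Srebf1 (-0.70) and Acly (-0.67). Elovl6 was at 13.0 TPM in wild type, 6.50 in Tug1-/- and 4.91 in rescue, Srebf1 at 13.7, 9.69 and 8.42 TPM, and Acly at 67.3, 50.7 and 42.2 TPM. For these 3 genes the rescue mean did not lie between the other means but past that of Tug1-/-.

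Of the 9 members compared, only Me1 had its rescue mean between those of wild type and Tug1-/-, at 244 TPM. For 6 members it lay past the Tug1-/- mean and for Scd2 (127 TPM) and Thrsp (1.47 TPM) past the wild-type mean. Fasn and Acaca varied little, at 38.3 and 14.5 TPM in rescue. Elovl4 was at 2.98 TPM in wild type, 0.485 in Tug1-/- and 0.413 in rescue, and Mid1ip1 at 27.3, 18.1 and 17.6 TPM, the same order as for Elovl6. Of the other lipid genes, Plin5 (-0.68) was lower in rescue than in Tug1-/- testes, and against wild type Pdha1 (-0.66) was lower and Me2 (0.64) higher. Of the Leydig markers past the fold in Tug1-/-, Insl3 (-1.13) and Star (-0.63) were lower in rescue than in Tug1-/- testes. The transgene, its integration site and CAGs-rtTA3 set the rescue group apart, and whether the other groups had doxycycline was not given, so the parts of these in the rescue values cannot be told apart.

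**Figure D4:**
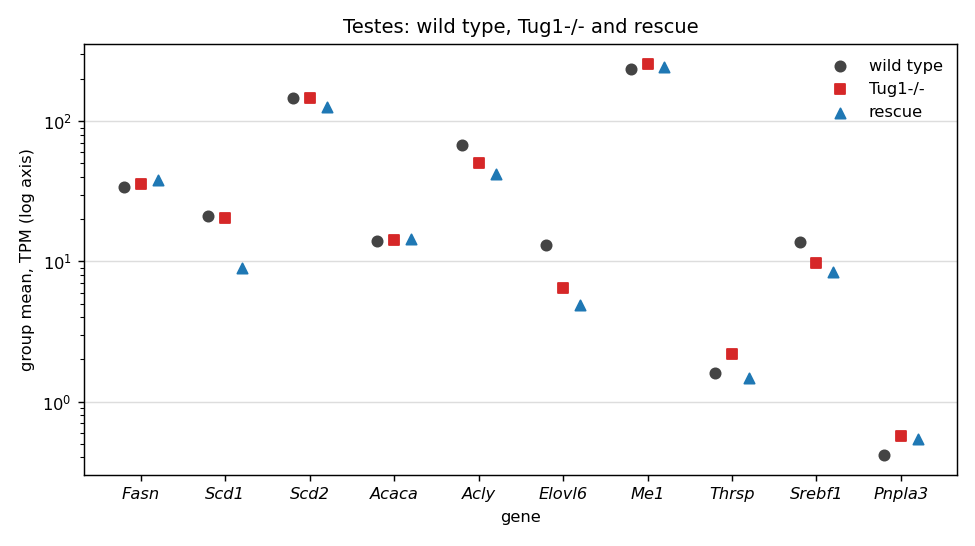
Mean TPM (log axis) of each gene in wild-type, Tug1-/- and rescue testes, with no error bars because single samples are not in the files. Elovl6, Acly and Srebf1 step down from wild type over Tug1-/- to rescue, and Scd1 is low in rescue alone, at 8.97 TPM.

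Brain and MEFs had no member past the fold. In brain this was 0 of 10 members, against 1.72% of 17244 genes higher and 3.0% lower, and the ratios ran from -0.13 for Scd1 (250 and 227 TPM) to 0.02 for Srebf1 (34.6 and 35.0 TPM). Fasn was at 103 and 102 TPM, Scd2 at 1411 and 1368 TPM, Acly at 181 and 171 TPM, Me1 at 59.2 and 54.8 TPM, Elovl6 at 60.8 and 55.7 TPM, Thrsp at 35.8 and 34.7 TPM, Acaca at 15.5 and 14.7 TPM and Pnpla3 at 8.77 and 8.57 TPM. In MEFs, the only grown cells here, it was 0 of 8 members, against 3.09% of 14450 genes higher and 3.34% lower. Scd2 was at 876 and 765 TPM (-0.20) and Fasn at 142 and 160 TPM (0.18), with the other 6 members between those ratios. Of the other lipid genes, Plin4 (-0.76) was past the fold in brain and Ppargc1b (0.63) in MEFs.

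Thrsp was past the fold in 3 tissues, higher in prostate, eyes and spleen, with a median log2 ratio of 0.42 over the 7 tissues where it was compared. Its range ran from -0.04 in brain to 2.23 in prostate. Elovl6 was past it in 3 tissues in both directions, lower in testes (-0.99) and heart (-0.69) and higher in prostate (0.78). Scd1 ran from -1.54 in heart to 0.70 in eyes. Fasn ran from -0.69 in heart to 0.33 in prostate, and Acly and Me1 stayed between -0.42 and 0.33. Srebf1 was above even in no tissue by more than 0.09, the value in MEFs, and its median was -0.14. No test of a difference between tissues was run, since the authors' comparison columns were not used and single-sample values are not in the files.

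By its wild-type pattern over the 8 tissues, Fasn was most like Rgs16, a regulator of G-protein signalling (Pearson r = 0.98 of log2 TPM), with Eva1a (0.95), Arhgap42 (0.94) and Evi5 (0.94) also near the top, among 9523 genes at 1 TPM or more in all 8. These are descriptions over 8 points, each a mean of one tissue. Among the members, Elovl6 was closest to Fasn (r = 0.86), then Acaca and Acly (0.77 each) and Srebf1 (0.70), with Scd1 at 0.55, Me1 at 0.44 and Scd2 at 0.10. The genes whose Tug1-/- ratios over the 8 tissues followed the members' median most closely, out of 9579, were Gm10509 (0.92), Pik3cd and Zfp709 (0.91 each) and Serpina3g and Ctdspl (0.89 each). These are the highest of 9579 correlations over 8 points, a selection that yields high values by itself, and they were not tested.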

How the data were processed

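RNA was prepared by the authors with a poly(A) kit and sequenced as paired reads. Per the study's methods, reads were aligned with STAR to mm10, counted per gene with featureCounts from uniquely placed reads over GENCODE vM16, and turned into TPM, and a gene was dropped if no replicate had at least 3 reads. The submitters' processing notes name CASAVA 1.8.2, STAR, featureCounts and DESeq2. The 2 deposited tables hold the authors' mean TPM per group, and for 7 of the 8 tissues a signal column, the mean size-factor normalised count per gene. They also hold the authors' own comparison columns (fold changes, standard errors, statistics and p-values), which were not used. No column of single samples was present, so depth per sample is unknown.

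Ratios, the 1 TPM minimum and the 1.5-fold rule were computed in Python 3.11.15 with numpy 2.4.6 and pandas 2.3.3, and figures were drawn with matplotlib 3.10.9. The code was tested on simulated data. Alternatives were pseudocounts of 0.01 and 1 TPM, no minimum or 5 TPM, 2-fold and a log2 ratio of 0.32 as the fold, ratios centred on the median, and protein-coding genes only.

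Genes named beyond the members are those of 9 pathway and context lists and of the cell type marker lists that were past the fold, or up to 4 of a list, the 5 genes most like in pattern, and Tug1. The members and lists were chosen with earlier results of these data known. Testes of F1 hybrid mice, 6 samples, were not used here. A few genes that the naming rule picks are not reported here.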

Additional observations from a re-analysis of the deposited data

How the results depend on the processing

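The files hold no values of single samples, so no replicate could be left out and no paired analysis was possible. The number of members past the fold depended mainly on the fold and on the level asked of a gene. At 2-fold it was 1 in heart, 1 in eyes, 2 in rescue over wild-type testes, and 0 in liver, spleen and Tug1-/- over wild-type testes, where 1.07% (heart) to 2.90% (spleen) of all genes in these comparisons lay past it. At a log2 ratio of 0.32 it was 5 in prostate, 4 in Tug1-/- over wild-type testes and 3 each in liver, spleen and rescue over Tug1-/- testes, against 17.0%, 13.0%, 16.3%, 25.6% and 10.3% of all genes, in that order. With a minimum of 5 TPM, which drops the scarce members, it was 2 in heart, 1 in prostate, and 0 in liver and spleen, against 1.66%, 2.93%, 3.37% and 6.17% of all genes. A pseudocount of 1 TPM left 2 in heart, against 1.98%. The other 64 of the 80 counts recomputed stayed within 1.5 times the value reported, among them all of those with a pseudocount of 0.01 TPM, without a minimum, centred, or over protein-coding genes only. Of 546 recomputed ratios of single members, 506 moved by under 0.1 on the log2 scale. None past the fold changed direction. Of the members past the fold in the 7 tissues with counts, those with the fewest normalised counts per library were Thrsp in spleen (96.8), Pnpla3 in heart (141) and prostate (149), Thrsp in prostate (176), Elovl6 in heart (246) and prostate (306) and Scd2 in liver (384).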

Other observations

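The cholesterol synthesis genes, which SREBP-2 controls and which draw on the same acetyl-CoA as the fatty acid genes, differed between tissues in how many of them had a Tug1-/- over wild-type ratio above 1. In liver this was 15 of 16 genes, with a median log2 ratio of 0.46, and 15 of 16 were also above the median of all genes. It was 0 of 16 in eyes (median -0.24, or -0.13 less the all-gene median), with 3 above the all-gene median. In spleen it was 0 of 15 (-0.18, or -0.07), with 5 above the all-gene median. In MEFs it was 2 of 16 (-0.19, or -0.24), with 1 above it. In heart it was 6 of 12 (0.01, or -0.09), with 1 above it. It was 8 of 16 in brain (-0.01, or 0.01), 7 of 15 in prostate (-0.03, or -0.06) and 8 of 15 in testes (0.01, or -0.02), with 8, 5 and 5 above the all-gene median. Liver was the only tissue with any of these genes past 1.5-fold, Sqle and Mvd among them. None of these counts was tested.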
